A study of Rattus norvegicus with 6 samples.

Results

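Vimentin and 9 further genes that mark fibroblasts, pericytes and pancreatic stellate cells, apart from the collagens, were followed in sorted rat β-cells. They were taken as the spots whose gene name on the array equalled *Vim*, *Acta2*, *Sparc*, *Mgp*, *Dcn*, *Lum*, *Pdgfra*, *Pdgfrb*, *Thy1* or *Fn1*. All 10 genes were on the array, of 36174 gene names, with 11 probes of 45598 and 49 spots. The samples were 3 replicating and 3 quiescent β-cell fractions, 1 of each from each of 3 islet preparations, and each preparation pooled the islets of 4 young adult male Wistar rats. All islets were cultured overnight with EdU, a thymidine analogue that marks cells that have copied their DNA, so the quiescent fractions were exposed to it too. The dispersed cells were labelled with Newport Green, a dye that binds zinc, and then fixed and permeabilised. Large, granular cells bright for the dye were sorted as β-cells, and as replicating (EdU-positive) or quiescent (EdU-negative). Cells were kept by size, granularity and dye, and no mesenchymal marker was used in the sort. RNA from each fraction was amplified as a whole transcriptome and hybridised to 1 single-colour array, 6 arrays in all.

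Mesenchymal cells of the islet lie around the vessels and at the islet border. They hold their shape with vimentin filaments, contract with smooth muscle actin when activated, sense platelet-derived growth factor through a pair of receptors, and secrete a matrix of collagen, fibronectin, small proteoglycans and calcium-binding proteins. Vimentin and several of the secreted proteins are also made by other cells, and endocrine cells kept in culture can gain vimentin.

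Some of the probes behind the results are shown here, because each value below is the signal of a single 60-base stretch, not of the whole transcript. They are written 5′ to 3′ as on the array, in the build rn4 that the array files use. *Vim* was read at chr17:87851390-87851449 on the plus strand, *Mgp* at chr4:173910827-173910886 on the minus strand and *Sparc* at chr10:40811473-40811532 on the minus strand. *Lum* lay at chr7:35086409-35086468 on the plus strand. *Dcn*, on the same strand of the same chromosome, spanned chr7:35037331-35041132, which is 3802 bases for a 60-base probe, so that its ends lay apart in the genome. For *Thy1*, the brighter probe lay at chr8:47032524-47032583, and a second spanned 461 bases at chr8:47031186-47031646. The brighter probe represented the gene, and only the second is printed below. The exon or untranslated region behind each probe was not analysed here. Capitals mark the longest run of bases that the probes of *Dcn* and *Lum*, a pair of related leucine-rich proteoglycans, had in common, 12 bases long.
Vim: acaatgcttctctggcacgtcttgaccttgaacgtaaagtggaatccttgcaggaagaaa
Mgp: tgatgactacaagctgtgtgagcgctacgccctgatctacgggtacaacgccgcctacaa
Sparc: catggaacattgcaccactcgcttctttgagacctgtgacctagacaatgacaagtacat
Dcn: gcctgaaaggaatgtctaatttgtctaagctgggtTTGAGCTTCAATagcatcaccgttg
Lum: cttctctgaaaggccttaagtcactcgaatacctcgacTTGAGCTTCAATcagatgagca
Thy1, second probe: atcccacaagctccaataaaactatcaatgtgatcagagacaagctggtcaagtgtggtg

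The arrays themselves differed in 1 respect that touches the values. Over all probes the replicating arrays correlated with each other at Pearson's r of 0.967 to 0.986. The quiescent arrays of preparations 1 and 3 correlated at 0.867, while the quiescent array of preparation 2 reached 0.83 with the former and 0.654 with the latter. Its median unnormalised signal was 557, against 196 on the replicating array of the same preparation and 302 to 385 on the other 4 arrays (arbitrary fluorescence units). All 8 cell-cycle genes checked were called higher in replicating cells, with a median log2 ratio of 3.69. Among them, *Rrm2*, *Cdk1*, *Top2a*, *Plk1* and *Mcm5* are in the paper's list of top upregulated genes from these same arrays. Their calls are therefore no separate check of the labels. Of 9 β-cell genes, *Mafa*, an activator of insulin transcription, was called lower (log2 ratio -1.01) and 0 were called higher. Their median log2 ratio was -0.56 (-0.02, 0.11 and -0.71 in preparations 1, 2 and 3), and *Ins1* had 0.25 (adjusted p = 0.733, limma). Without preparation 1, 2 or 3 the number of β-cell genes called lower was 0, 2 and 0. The median of the list was then -0.53, -0.56 and -0.02. *Mafa* was called under 7 of the 14 alternative settings, and its other probes were not called. Results for the 10 genes are therefore also given without preparation 2 where that changed a call or a direction. Counts for several of the other gene lists are given with each preparation left out.

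Of the 10 mesenchymal markers, *Vim* and *Mgp* were called higher in the replicating fraction and 0 were called lower. A probe was called when its unadjusted p in limma's paired test was at most 0.05 and its absolute log2 ratio at least 1, which is a 2-fold change. This rule called 4.44% of all 45598 probes higher and 4.18% lower. No member passed an adjusted p under 0.05, and no probe of the array did, the smallest adjusted p being 0.0977. At an unadjusted p of at most 0.05 alone, *Thy1* joined *Vim* and *Mgp*, 3 of 10 genes, where 9.6% of all probes passed in either direction.

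The fitted log2 ratio, replicating over quiescent, was above 0 for each of the 10 genes, from 0.23 (*Pdgfra*) to 1.89 (*Vim*), and 45.3% of all probes lay above 0. With either scaling to the 75th percentile in place of quantile normalisation, 8 of the 10 were above 0 and *Acta2* and *Pdgfra* below. The median over the 10 genes was 0.82, against -0.07 over all probes. By preparation that median was 1.40, 0.67 and 0.67, with 9, 7 and 9 genes above 0. *Vim*, *Mgp*, *Lum*, *Thy1* and *Fn1* were higher in each of the 3 preparations, 5 of 10 genes, where 15.7% of probes measured in every preparation were. In preparation 2, *Mgp* alone of these 5 was also higher before normalisation. In bulk fractions such as these, fewer cells of a type and less RNA per cell cannot be told apart.

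**Figure D1:**
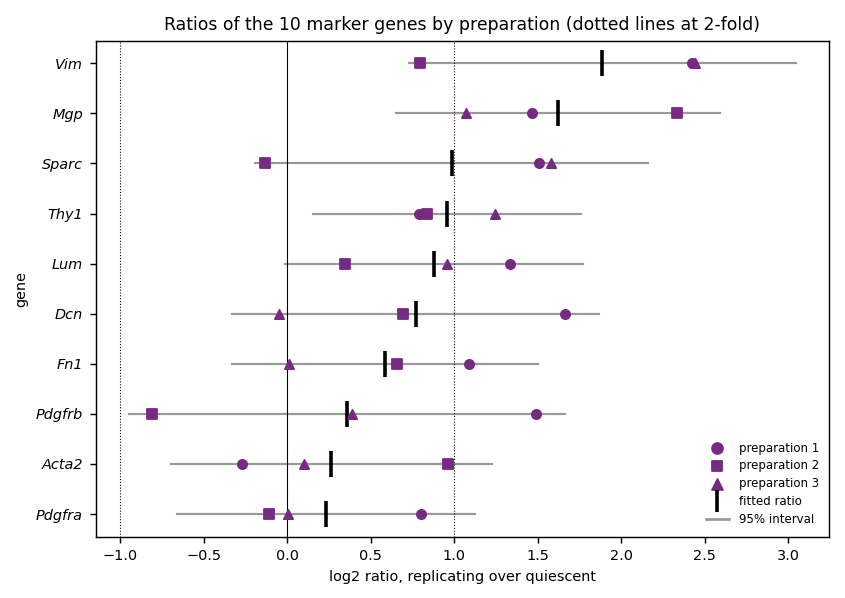
Log2 ratio of replicating over quiescent cells (x axis) for each marker gene (y axis), read from its brightest probe. Symbols are the 3 preparations, black ticks the fitted ratios, grey lines their 95% intervals and dotted lines a 2-fold change. The intervals of *Vim*, *Mgp* and *Thy1* lay above 0, those of the other 7 genes included 0, and the ratios of *Acta2* and *Pdgfra* turned below 0 with scaling to the 75th percentile.

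Among the cytoskeletal genes, *Vim*, the intermediate filament of mesenchymal cells, stood at normalised log2 values of 9.62, 7.82 and 9.85 on the replicating arrays (given here and below in the order of preparations 1, 2 and 3). On the quiescent arrays in the same order it stood at 7.19, 7.03 and 7.41. Every replicating array lay above every quiescent one, a separation that 9.01% of all probes showed in this direction. Preparations 1 and 3 moved alike, with log2 ratios of 2.43 and 2.44, and preparation 2 less, with 0.79. The fitted log2 ratio was 1.89 ± 0.46 (SE, n = 3 pairs), or 3.70-fold, with a 95% interval of 0.73 to 3.05 (adjusted p = 0.475, limma). Without preparation 2 the ratio was 2.43 (adjusted p = 0.102), and without preparation 1 it was 1.62, its unadjusted p rose above 0.05 and it was no longer called (adjusted p = 0.966). The probe had 10 spots on each array, whose SD within an array was 0.0563 to 0.152 on the log2 scale, below the differences between arrays of different fractions.

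In preparation 2 the unnormalised and the normalised *Vim* values ran in opposite directions. Its unnormalised signal there was 117 on the replicating array and 258 on the quiescent one, on arrays whose medians were 196 and 557. In the other preparations the unnormalised signals ran the same way as the normalised ones, 746 against 161 in preparation 1 and 1171 against 114 in preparation 3. In preparation 2 the values of *Acta2*, *Dcn*, *Lum*, *Fn1* and the brighter *Thy1* probe also ran in opposite directions (*Acta2* 347 against 536 unnormalised, *Thy1* 115 against 242). *Mgp* was higher in replicating cells both ways (397 against 267). *Sparc*, *Pdgfra*, *Pdgfrb* and the second *Thy1* probe were lower both ways.

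*Acta2*, the smooth muscle actin of contractile and activated stellate cells, stood at log2 values of 8.97, 9.28 and 8.65 on the replicating arrays. The quiescent arrays gave 9.24, 8.32 and 8.55, and the groups overlapped. Its log2 ratio was -0.27, 0.96 and 0.10 in the 3 preparations and 0.26 ± 0.38 (SE) in the fit, with a 95% interval of -0.70 to 1.23 (adjusted p = 0.746, limma). Its direction was not settled: without preparation 2 the ratio was -0.085, and the scalings to the 75th percentile gave -0.095 (processed signal) and -0.071 (normexp). *Acta2* was well above background on all 6 arrays, a mark that at least 80.8% of all probes had on each array. Its only probe had no genomic position in the array annotation, so which sequence gave that signal was not checked. By quantitative PCR the paper could not detect *Acta2* in its sorted β-cell fractions. By the same method it detected vimentin in both fractions, at a higher level in the replicating one.

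**Figure D2:**
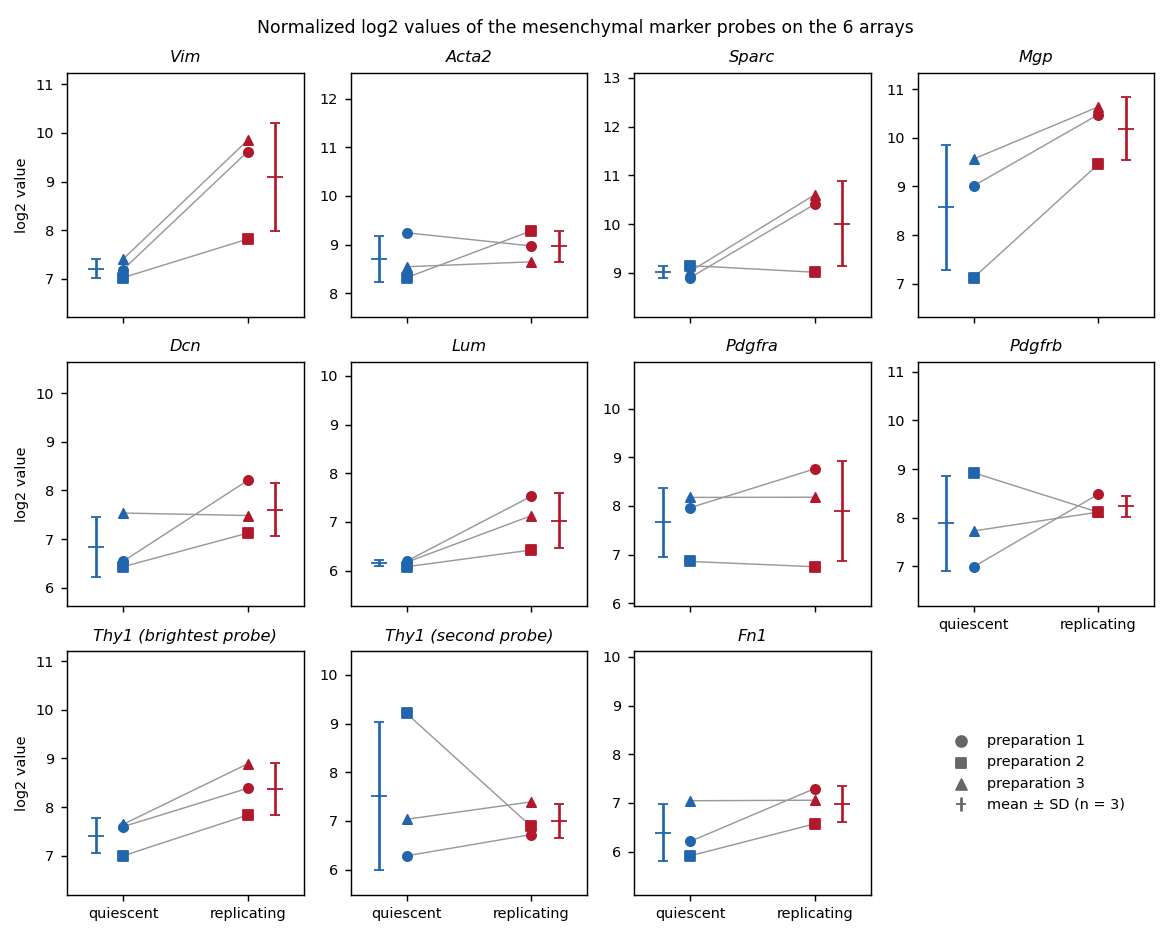
Normalised log2 value (y axis) of each marker probe in quiescent and replicating fractions (x axis). Symbols are the 3 preparations, lines join the 2 arrays of a preparation, and bars are the mean ± SD of 3 arrays. Every panel spans 5 log2 units. The 2 fractions did not overlap for *Vim*, *Lum* and the brightest *Thy1* probe, and the second *Thy1* probe was highest on the quiescent array of preparation 2.

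Among the secreted proteins, *Mgp*, a calcium-binding matrix protein that inhibits mineralisation, stood at log2 values of 10.48, 9.46 and 10.63 on the replicating arrays. On the quiescent arrays it stood at 9.01, 7.12 and 9.56. The groups overlapped, since the replicating array of preparation 2 lay just below the quiescent array of preparation 3, yet within each preparation the replicating cells were higher. The log2 ratios were 1.47, 2.33 and 1.07. The fitted log2 ratio was 1.62 ± 0.38 (SE, n = 3 pairs), or 3.08-fold, with a 95% interval of 0.65 to 2.59 (adjusted p = 0.475, limma). It was called with any 1 preparation left out, from 1.27 without preparation 2 to 1.90 without preparation 3. Without the preparation in the fit, its unadjusted p lay above 0.05 and *Mgp* was not called (adjusted p = 0.542). The 10 spots agreed within an SD of 0.0704 to 0.280 on the log2 scale, the widest on the quiescent array of preparation 2.

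*Sparc*, a matricellular glycoprotein that binds collagen and calcium, stood at log2 values of 10.41, 9.01 and 10.60 on the replicating arrays. The quiescent arrays were close together at 8.90, 9.15 and 9.02. Preparations 1 and 3 thus differed between fractions while preparation 2 did not, with log2 ratios of 1.51, -0.14 and 1.58. The fitted log2 ratio of 0.98 ± 0.46 (SE) was not called (95% interval -0.19 to 2.16, adjusted p = 0.475, limma). Without preparation 2 it was 1.54 and was called (adjusted p = 0.484). The SD between its 10 spots was 0.0416 to 0.104, and the difference of preparation 2 from the other 2 was larger than that.

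*Fn1*, the fibronectin that cells bind through integrins, was a dim probe at chr9:70702316-70702375 on the minus strand with 25% G and C, where the median probe had 43.3%. Its log2 values were 7.29, 6.57 and 7.05 on the replicating arrays and 6.21, 5.91 and 7.04 on the quiescent ones. On both arrays of preparation 2 fewer than 50% of its 10 spots were well above background, 4 on the replicating and 3 on the quiescent array. The log2 ratios of 1.09, 0.66 and 0.01 gave a fitted 0.59 ± 0.36 (SE; 95% interval -0.33 to 1.50, adjusted p = 0.501, limma). The groups overlapped, and *Fn1* was not called under any of the 13 alternative settings that kept its probe.

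**Figure D3:**
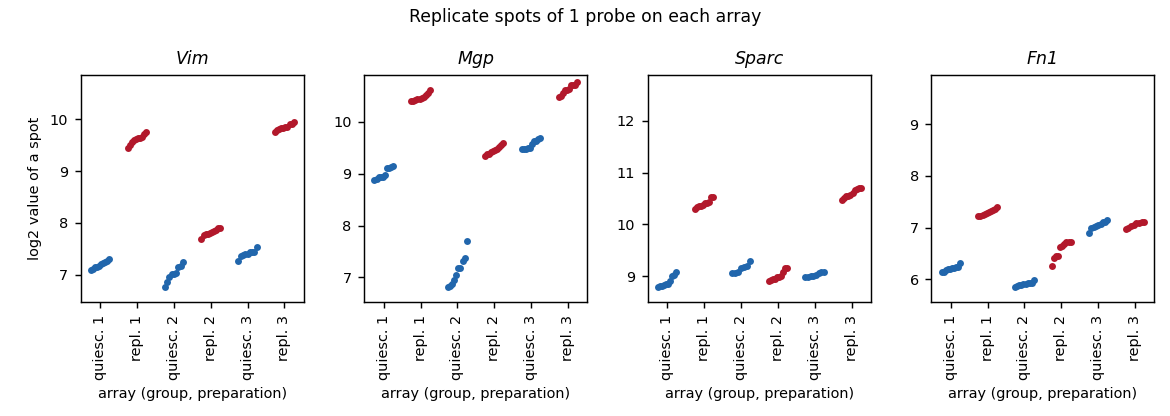
Normalised log2 value (y axis) of every spot of the 4 marker probes printed 10 times, by array (x axis: quiescent in blue, replicating in red, numbered by preparation, outlier spots left out). Spots are sorted by value within an array. The spots of *Sparc* on both arrays of preparation 2 overlapped, and for *Vim* every replicating spot lay above every quiescent one.

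The small leucine-rich proteoglycans *Dcn* and *Lum*, which bind collagen fibrils and set their spacing, were both dim. *Lum* stood at log2 values of 7.53, 6.42 and 7.13 on the replicating arrays and at 6.19, 6.08 and 6.17 on the quiescent ones. The fractions did not overlap. Its log2 ratios were 1.33, 0.34 and 0.96, and the fitted 0.88 ± 0.35 (SE) was not called (95% interval -0.02 to 1.77, adjusted p = 0.475, limma). Its unnormalised signals ran from 39.0 to 128, over a local background of 25 to 28, and it was not well above background on the replicating array of preparation 2 or the quiescent array of preparation 3. With a smaller offset added to the signal before the logarithm, its log2 ratio rose to 1.35 (offset 16) and 1.96 (offset 0) from the 0.88 at the deposited offset of 50, and it was called. *Lum* was also called without preparation 2, at 1.14 (adjusted p = 0.928).

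*Dcn* stood at log2 values of 8.21, 7.12 and 7.48 on the replicating arrays and at 6.54, 6.43 and 7.53 on the quiescent ones. Replicating cells were higher in preparations 1 and 2 and level with quiescent cells in preparation 3, with log2 ratios of 1.66, 0.69 and -0.05. The fitted log2 ratio was 0.77 ± 0.43 (SE; 95% interval -0.33 to 1.87, adjusted p = 0.489, limma). Unlike *Lum*, its quiescent arrays spread over 1.10 log2 units, and it was well above background on all 6 arrays.

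Among the cell-surface genes, *Thy1*, a surface glycoprotein of fibroblasts, was the one gene with 2 probes, and they did not agree. The brighter probe stood at log2 values of 8.39, 7.84 and 8.89 on the replicating arrays and 7.60, 7.00 and 7.65 on the quiescent ones. These groups did not overlap, with log2 ratios of 0.79, 0.84 and 1.24. The fitted log2 ratio was 0.96 ± 0.31 (SE), or 1.94-fold, just under the 2-fold threshold (95% interval 0.16 to 1.76, adjusted p = 0.475, limma). It passed the threshold without preparation 2, at 1.02.

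The second *Thy1* probe, the one printed above, gave 6.72, 6.89 and 7.39 on the replicating arrays and 6.28, 9.21 and 7.04 on the quiescent ones. It was higher in replicating cells of preparations 1 and 3, by 0.44 and 0.36 on the log2 scale, and lower in preparation 2, with a log2 ratio of -2.32. Its fitted log2 ratio was -0.51 ± 0.64 (SE; 95% interval -2.14 to 1.12, adjusted p = 0.708, limma). Its unnormalised signal on the quiescent array of preparation 2 was 778, against 59.3 to 138 on the other 5 arrays. Both probes thus ran the same way outside preparation 2.

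The receptors of platelet-derived growth factor were not called. *Pdgfrb*, the receptor of pericytes and activated stellate cells, was read at chr18:57053387-57053446 and stood at log2 values of 8.48, 8.11 and 8.12 on the replicating arrays. The quiescent arrays spread wider, at 6.99, 8.92 and 7.73. Preparation 2 again ran against the others, with log2 ratios of 1.49, -0.81 and 0.39, and the fit gave 0.36 ± 0.51 (SE; 95% interval -0.95 to 1.66, adjusted p = 0.747, limma). Its direction depended on preparation 1, without which the ratio was -0.21. *Pdgfra*, the receptor of fibroblast progenitors, was read at chr14:35369708-35369767 and stood at 8.76, 6.75 and 8.18 on the replicating arrays and at 7.96, 6.86 and 8.18 on the quiescent ones. Both fractions of preparation 2 were low and the groups overlapped, with log2 ratios of 0.80, -0.11 and 0.00. The fit gave 0.23 ± 0.35 (SE; 95% interval -0.66 to 1.12, adjusted p = 0.760, limma), and the ratio was -0.052 without preparation 1, -0.74 with the processed signal and -0.18 with normexp, both scaled to the 75th percentile.

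Across arrays, 9 of the 11 probes had their lowest replicating value in preparation 2. The exceptions were *Acta2*, lowest in preparation 3, and the second *Thy1* probe, lowest in preparation 1. The mean log2 value of the 10 genes was 8.81, 7.84 and 8.66 on the replicating arrays and 7.58, 7.28 and 7.88 on the quiescent ones. The lowest replicating array thus lay below the highest quiescent one, although within each preparation the replicating mean was higher. Of the 10 genes, 8 were well above background on all 6 arrays. On single arrays, 80.8% to 87.3% of all probes were so marked in the replicating group and 85.7% to 98.4% in the quiescent group.

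The collagens, the main matrix product of mesenchymal cells, were measured on the same arrays and differed more. Of 7 collagen genes on the array, 5 were called higher by their brightest probe and 0 lower, with a median log2 ratio of 2.93. The largest ratios were those of *Col6a2* (3.24), *Col6a3* (3.06), *Col3a1* (3.04), *Col1a2* (2.93) and *Col5a1* (2.29). *Col1a1* and *Col5a2* were not called by their brightest probes (1.54 and -0.32) and were called by their other probes (3.68 and 3.08). The second probes of *Col6a2* (-0.19) and *Col6a3* (0.82) were not called, and that of *Col5a1* (2.24) was. The mean log2 value over the collagens was 12.49, 11.05 and 12.23 on the replicating arrays, lowest in preparation 2 as for most of the markers, and 9.32 to 9.96 on the quiescent arrays.

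Other mesenchymal and mural genes were split. Of 21 on the array, 5 were called higher and 0 lower, with a median log2 ratio of 0.29. Without preparation 1, 2 or 3 the number called higher was 3, 7 and 7, and the median 0.14, 0.78 and -0.07, so that its direction was not settled. The 5 were *Postn* (2.60), a matricellular protein of activated fibroblasts, *S100a4* (2.47), a calcium-binding protein of fibroblasts that macrophages make too, *Fbln1* (1.74) and *Fbn1* (1.36), matrix fibre proteins, and *Timp2* (1.69), an inhibitor of matrix metalloproteinases. By their second probes *S100a4* (0.01) and *Fbln1* (0.45) were not called. *Pdpn* and *Timp3* were not called by their brightest probes (0.72 and -0.14) and were called by another (1.70 and 1.10). Genes of the contractile apparatus, to which *Acta2* belongs, were not called: *Des* had a log2 ratio of -0.61, *Tagln* -0.17, *Myl9* -0.12, *Cnn1* -1.72 and *Myh11* 0.08. *Cnn1* was called lower, though, under 7 of the 14 alternative settings. The pericyte genes *Rgs5* (-1.26) and *Cspg4* (0.15) were not called either, as *Pdgfrb* was not. *Rgs5* had log2 ratios of 0.88, -4.45 and -0.19 in the 3 preparations, so that its fitted value came from preparation 2. With the processed signal scaled to the 75th percentile, *Postn* and *S100a4* were still called.

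Genes that work with the 10 markers were counted in the same way. Of 7 further small proteoglycans, relatives of *Dcn* and *Lum*, *Omd* was called higher (1.21) and 0 lower, with a median log2 ratio of 0.47. The other *Omd* probe was not called (0.33), while *Bgn* (1.87), *Ogn* (1.09) and *Prelp* (1.37) were called by their other probes alone. Of 11 genes that fold and cross-link collagen, the lysyl oxidases *Lox* (1.73) and *Loxl2* (1.27) were called higher and 0 lower, with a median of 0.92. Of 12 integrin subunits and matricellular genes, 3 were called higher and 0 lower, with a median of 0.63. These were *Itga5* (1.82), the α subunit of the classical fibronectin receptor, *Smoc2* (1.61), a relative of *Sparc*, and *Thbs1* (2.33), a matricellular protein.

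Of the 4 ligands of the *Pdgfra* and *Pdgfrb* receptors, *Pdgfc* was called lower (-1.42) and 0 higher. That call was absent without preparation 1 or preparation 2 and with the processed signal. Of 14 TGF-β pathway genes, the ligand *Tgfb3* (1.07) and the inhibitory *Smad7* (1.01) were called higher and 0 lower, with a median log2 ratio of 0.86. Neither was called under either scaling to the 75th percentile. Of 8 genes of epithelial to mesenchymal transition, the repressor *Snai1* was called higher (1.43) and 0 lower, with a median of 0.49. Of the genes called in these groups of partner genes, *Lox*, *Thbs1* and *Snai1* were still called with the processed signal. Without preparation 1, 2 or 3 the number called higher was 0, 3 and 0 for the proteoglycans, 1, 4 and 3 for collagen processing, 1, 5 and 2 for integrins and matricellular genes, 0, 4 and 6 for the TGF-β pathway and 0, 2 and 2 for the transition genes. *Loxl2* and *Smad7* were among the genes not called without preparation 2.

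Intermediate filaments other than *Vim* gave 0 calls of 9 genes and a median log2 ratio of 0.00. The largest differences were those of *Prph* (-1.12, adjusted p = 0.490, limma) and *Gfap* (-1.11, adjusted p = 0.536), filaments of nerve and glia. *Prph* was lower in preparations 1 and 2, most in the latter (-2.73), and higher in preparation 3 (0.38). *Gfap* had log2 ratios of 0.13, -3.52 and 0.06, so that its difference was that of preparation 2. The epithelial keratins *Krt8* and *Krt18* had log2 ratios of 0.15 and 0.14.

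**Figure D4:**
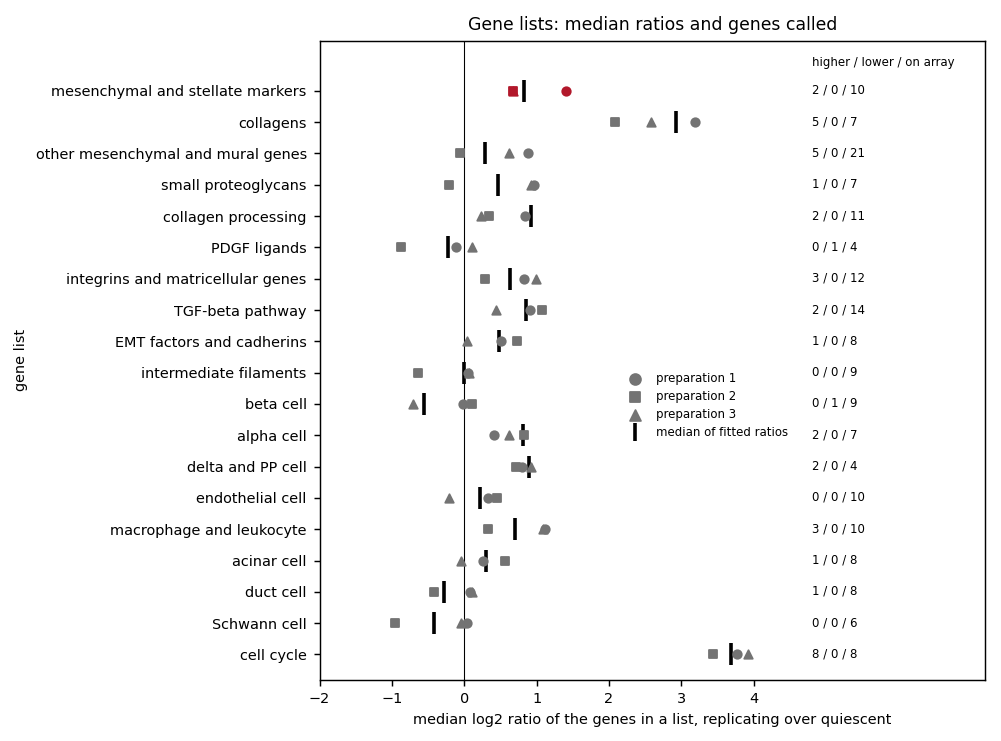
Median log2 ratio of replicating over quiescent cells (x axis) of each gene list (y axis). Symbols are the medians in the 3 preparations, black ticks the medians of the fitted ratios, and the text gives the number of genes called higher, called lower and on the array. The mesenchymal markers, in red, lay at 0.82, between the collagens at 2.93 and the other mesenchymal and mural genes at 0.29. The α-cell, δ- and PP-cell and macrophage and leukocyte lists lay near the markers, at 0.82, 0.89 and 0.71. The endothelial (0.21), acinar (0.30), duct (-0.28), Schwann (-0.42) and β-cell (-0.56) lists lay lower. The medians of the intermediate filaments and the endothelial genes turned below 0 with scaling to the 75th percentile.

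Genes whose 6 values followed those of *Vim* and *Mgp* most closely were sought among 14372 genes well above background on all 6 arrays, after each was centred on its own mean. For *Vim* they were *Ppic*, *Itga5* and *Vcan*, at root mean square distances of 0.159, 0.162 and 0.210 log2 units. *Itga5* stood at 9.72, 7.67 and 9.54 on the replicating arrays and at 7.15, 6.78 and 7.53 on the quiescent ones. Its low replicating array was that of preparation 2, which follows from its choice by closeness to *Vim*. For *Mgp* they were *Gda*, *Arhgdib* and *Ms4a4a*, at distances of 0.117, 0.149 and 0.167. *Gda* stood at 10.38, 9.39 and 10.89 on the replicating arrays and at 8.95, 7.15 and 9.57 on the quiescent ones. Its lowest quiescent array was that of preparation 2, which likewise follows from its choice by closeness to *Mgp*. Likeness over 6 arrays is a description, and the genes share the same libraries.

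Some markers of other islet and pancreatic cells differed between the fractions as well, and their part in the values of the 10 genes was not tested. Of 7 α-cell genes, *Gcg* (log2 ratio 2.39) and *Gc* (1.86) were called higher, and of 4 δ- and PP-cell genes, *Sst* (1.74) and *Ppy* (1.21). Of 10 macrophage and leukocyte genes, *Cd68* (1.32), *Cd74* (1.48) and *Cd14* (1.18) were called higher. Without preparation 1, 2 or 3 this number was 0, 6 and 2. The mean log2 value over the list was 9.07 to 9.73 on the replicating and 8.62 to 9.07 on the quiescent arrays. Of 8 acinar genes *Prss1* (1.56) was called higher, and of 8 duct genes *Spp1* (2.09), a secreted phosphoprotein that macrophages also make. Only 2 of the 8 duct genes had a ratio above 0, and the median log2 ratio of that list was -0.28 (0.04 without preparation 2). *Krt20* (-1.75) was called lower under 7 of the 14 alternative settings. None of these lists had a gene called lower in the fit of all 6 arrays. Median log2 ratios of the α-cell (0.82), δ- and PP-cell (0.89) and macrophage and leukocyte (0.71) lists were near that of the 10 markers (0.82). The acinar list had a lower median of 0.30. Without preparation 1 the δ- and PP-cell and the acinar lists had 0 genes called higher, and without preparation 1 or 2 *Gc* was not called. With the processed signal scaled to the 75th percentile, *Gcg* and *Spp1* alone of these genes were still called.

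Endothelial and Schwann cell lists gave 0 calls of 10 and of 6 genes. Without preparation 3, 3 endothelial genes were called higher and 2 lower, and the median log2 ratio of the list was 0.21 with all arrays and -0.33 without preparation 2. *S100b*, a calcium-binding protein of Schwann cells, was called higher under 5 of the 14 alternative settings. The largest endothelial differences were *Plvap* (1.33, adjusted p = 0.475, limma) and *Cdh5* (-0.91, adjusted p = 0.475), and the endothelial mean log2 value was 8.48 to 9.46 on replicating and 8.66 to 9.13 on quiescent arrays. The largest Schwann differences were *Ngfr* (-1.44, adjusted p = 0.493, limma) and *Gfap*. *Ngfr* had log2 ratios of -0.05, -3.93 and -0.33 in the 3 preparations, so that its difference too was mainly that of preparation 2. The mean log2 value of the β-cell genes was 13.44 to 13.58 on replicating and 13.57 to 14.10 on quiescent arrays.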

How the data were processed

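Global gene expression was measured on 6 single-colour (Cy3) Agilent arrays read with Feature Extraction 10.7.3.1. All 6 carried the same scan date. The intensity values deposited by the authors are spot signals with a local background and quality marks, not normalised between arrays. A second set of deposited values, on the log2 scale, had been corrected for background with normexp and quantile normalised by the authors. Recomputing them with an offset of 50 gave differences of at most 0.000245. The offset draws low ratios towards 0.

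Here the deposited log2 values were used. Control spots and spots marked as outliers (252 to 1583 per array) were left out, spots of a probe were averaged, and 45598 probes were fitted with limma 3.58.1 in R 4.3.3, with the islet preparation as a block and Benjamini-Hochberg adjustment over all probes. No spot was saturated (0 of 62976 positions on any array). Pairing follows the replicate number in the sample titles, which was taken as the islet preparation. By the paper's methods, each preparation gave both fractions. Same-preparation arrays deviated together with r of 0.0561, 0.242 and 0.258. A gene was read from its brightest probe over the 6 arrays. A probe was well above background where at least 50% of its spots were so marked. An array probe's level can be compared between arrays only, not with another probe. The number of arrays limits the precision: an exact two-sided test over 3 pairs cannot go below p of 0.25, so differences rest on limma, which pools the spread over probes.

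All members were named, with the genes called in each other list, or the 2 with the largest difference where none was called, and for called members the 3 genes closest in pattern. Markers and lists were chosen with earlier results of these data known, so list counts and medians are descriptions. The fit was tested on simulated data. Figures were drawn with matplotlib.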

Additional observations from a re-analysis of the deposited data

How the results depend on the processing

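*Vim* and *Mgp* were each called under 12 of the 14 alternatives, and their ratios were above 0 under all 14 (*Vim* 1.57 to 2.43, adjusted p 0.102 to 0.966; *Mgp* 1.26 to 1.90, adjusted p 0.160 to 0.966). The number of the 10 genes called was 2 in the main values, 4 with a normexp offset of 0, 4 with an offset of 16 and 4 with cyclic loess (*Lum* and *Thy1* added each time), and 0 with the processed signal scaled to the 75th percentile (adjusted p of 0.479 for both). Without the replicate block, that is without the islet preparation in the fit, it was 1 (*Vim*), and the probes at an adjusted p under 0.05 went from 0 to 99. With 1 preparation left out it was 1 to 5: *Mgp* alone without preparation 1, *Vim*, *Sparc*, *Mgp*, *Lum* and *Thy1* without preparation 2, and *Vim* and *Mgp* without preparation 3. The median ratio of the 10 genes was 0.82, moved to 1.30 with an offset of 0, and ran from 0.47 to 1.30 over all alternatives. Calls in the related gene lists numbered 20, and 10 with the processed signal. They ranged from 10 (without preparation 1) to 31 (without preparation 2) with 1 preparation left out. Ratios that turned below 0 were those of *Acta2* (-0.095 with the processed signal, -0.071 with normexp at the 75th percentile), *Pdgfra* (-0.74 and -0.18 in the same order) and *Thy1* when read from its second probe (-0.51). With 1 preparation left out, *Acta2* ranged from -0.085 (without preparation 2) to 0.53 (without preparation 1), *Pdgfra* from -0.052 (without preparation 1) to 0.40 (without preparation 2) and *Pdgfrb* from -0.21 (without preparation 1) to 0.94 (without preparation 2). The cause of these changes was not tested. The scalings to the 75th percentile moved the median ratio of all probes from -0.07 to -0.71 (processed signal) and -0.39 (normexp), and the share of calls that were higher from 51.5% to 17.2% and 21.4%. Relative to that median the 10 genes stood at 0.89, 1.30 and 0.86. Calls over all probes were 2023 higher and 1905 lower, 662 and 3193 with the processed signal, 1596 and 5862 with normexp at the 75th percentile, 1879 and 878 without the block, and 518 and 63, 1447 and 813, and 5112 and 5633 without preparations 1, 2 and 3. Probes at an adjusted p under 0.05 numbered 719 with normexp at the 75th percentile, 204 with cyclic loess, 61 with a variance trend and 84 without preparation 2, none of them a member. Apart from these and the fit without the block, the number was 0. The filter on dim probes dropped *Lum* and *Fn1*, whose signals near background limit their ratios.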
